A study of Mus musculus with 4 samples.

Results

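The genes for 4 ligands (Vegfa, Vegfb, Vegfc and Pgf), 3 receptor kinases (Kdr, Flt1 and Flt4) and 2 neuropilins (Nrp1 and Nrp2) were followed through single-cell RNA libraries of mouse aorta. They were taken by gene symbol, and all 9 were found, once each, among the 32285 features of the count tables. There was 1 library in each of 4 groups, WT and LysM-DKO mice fed a normal diet and WT/ApoE-/- and LysM-DKO/ApoE-/- mice fed a western diet. Values are given in this order throughout. The series title names epsins, endocytic adaptor proteins, as the target; the labels do not spell out the genes behind LysM-DKO, and LysM is the name commonly used for a Cre driver of myeloid cells. The labels give no age and no number of animals. Aortas were rinsed and digested with enzymes to free the cells.

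Vascular endothelial growth factors are secreted dimers that signal to endothelial cells through receptor tyrosine kinases. VEGF-A, from Vegfa, binds both VEGFR2 (Kdr), the main signalling receptor of blood vessels, and VEGFR1 (Flt1), which holds ligand with little signalling of its own and is also the receptor for VEGF-B and placental growth factor (Pgf). VEGF-C acts through VEGFR3 (Flt4) on lymphatic vessels, and the neuropilins are co-receptors that also bind class 3 semaphorins. Epsins are known for taking up activated VEGFR2 from the cell surface of endothelial cells, whereas LysM-driven Cre acts in myeloid cells.

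Kdr and Flt1 are the VEGF-A receptors on which the endothelial results turn, so the sequences upstream of both are shown. On mm10 in the GENCODE M21 annotation, Kdr spans chr5:75932827-75978458 and Flt1 spans chr5:147561604-147726011, both on the minus strand. The sequences are from RefSeq (GRCm38.p6), 5′ to 3′ on the minus strand. They run from position -250 to position -11 relative to the RefSeq start of the gene, which for Kdr is not the GENCODE start. They lie at chr5:75978466-75978705 for Kdr and chr5:147726022-147726261 for Flt1. Capitals mark GGAAG or its reverse complement CTTCC, letters found in the core of binding sites of ETS factors, a family that acts in endothelial genes.
Kdr: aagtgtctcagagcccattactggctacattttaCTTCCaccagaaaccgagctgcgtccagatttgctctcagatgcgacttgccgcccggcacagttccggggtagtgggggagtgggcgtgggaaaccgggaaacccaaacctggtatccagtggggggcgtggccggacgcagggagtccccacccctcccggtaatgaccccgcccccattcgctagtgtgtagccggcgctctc
Flt1: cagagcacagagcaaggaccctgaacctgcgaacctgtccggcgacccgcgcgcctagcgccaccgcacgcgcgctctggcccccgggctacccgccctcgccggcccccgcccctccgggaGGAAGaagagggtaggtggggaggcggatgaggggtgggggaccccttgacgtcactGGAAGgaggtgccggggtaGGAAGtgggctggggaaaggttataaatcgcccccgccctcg
The search covered both strands and found 1 match for Kdr, on the reverse strand, and 3 for Flt1, on the forward strand. Of 32851 RefSeq promoters with the same window of 240 bases, 62.2% held at least 1 match and 9.58% at least 3, so 1 match is common. A match describes letters and not a bound site.

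The other members lie elsewhere in the genome: Nrp2 at chr1:62703285-62818695 (plus strand), Vegfc at chr8:54077606-54187096 (plus), Nrp1 at chr8:128358604-128503363 (plus), Flt4 at chr11:49609263-49652739 (plus), Pgf at chr12:85166635-85177790 (minus), Vegfa at chr17:46016993-46032369 (minus) and Vegfb at chr19:6982473-6987651 (minus). Nrp2 overlaps Gm29083 on the other strand and Gm37121 on its own, and Nrp1 overlaps Mir1903. Reads in those overlaps may not be told apart. Counts are per gene from 3' ends, so the soluble form of Flt1 is not separated from the membrane form.

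Barcodes with at least 1000 unique molecular identifiers (UMIs, each counted as 1 captured RNA molecule) and at most 10% mitochondrial UMIs were kept, which left 7758, 8230, 13744 and 8133 barcodes with medians of 4167, 3404, 2103 and 6761 UMIs. Each was put in the first of 6 classes whose marker threshold it reached. The order was macrophage (C1qa, C1qb and C1qc, 5 UMIs), B (Cd79a and Ms4a1, 2), T (Cd3d, Cd3e and Trac, 2), endothelial (Pecam1 and Cdh5, 2), fibroblast (Pdgfra and Serpinf1, 3) and smooth muscle (Myh11 and Cnn1, 3). Between 9 and 41 kept barcodes were shared by any pair of libraries, at most 0.528% of the smaller one. The ApoE-/- western libraries also differed from the normal diet libraries in sex-linked genes. Xist was at 950, 950, 0.636 and 0.563 counts per 1000000 UMIs (CPM), and 4 Y-linked genes together were at 0.0982, 0.132, 185 and 193 CPM. Diet, ApoE genotype, sex and the Cell Ranger version in the file headers therefore cannot be told apart. In macrophages Apoe was at 7012, 5435, 8.44 and 8.55 CPM, as its genotype labels say. The epsin genes were at 81.7, 54.5, 52.4 and 42.7 CPM (Epn1) and 35.6, 33.6, 33.2 and 15.7 CPM (Epn2) in macrophages, on 11 to 205 UMIs a library; 3' counts can lie outside a deleted part and so do not check the deletion.

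The endothelial class held 732, 880, 394 and 417 barcodes, and its label was checked with 5 endothelial genes that the rule did not use. Tie1, Egfl7, Esam, Emcn and Vwf summed to 412, 532, 149 and 206 CPM there, against 21.3, 39.2, 19.8 and 16.8 CPM in the smooth muscle class. Most endothelial barcodes also reached the smooth muscle threshold: 78.1, 69.4, 78.9 and 83.2%. Acta2, Tagln, Myl9 and Tpm2, 4 smooth muscle genes, summed to 24558, 19202, 17598 and 22489 CPM in the class, against 31263, 28515, 34774 and 38558 CPM in smooth muscle barcodes. The class is thus a mixture of endothelial and smooth muscle RNA in every library. Endothelial results for the members are therefore also given for the 160, 269, 83 and 70 barcodes below the smooth muscle threshold, in which the 5 endothelial genes summed to 1195, 1176, 368 and 659 CPM. Among these the western libraries carried more fibroblast RNA (Dcn, Col1a1, Col1a2 and Lum at 4749, 3151, 21602 and 13393 CPM). Fewer endothelial cells behind a class and less RNA per cell cannot be told apart.

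**Figure D1:**
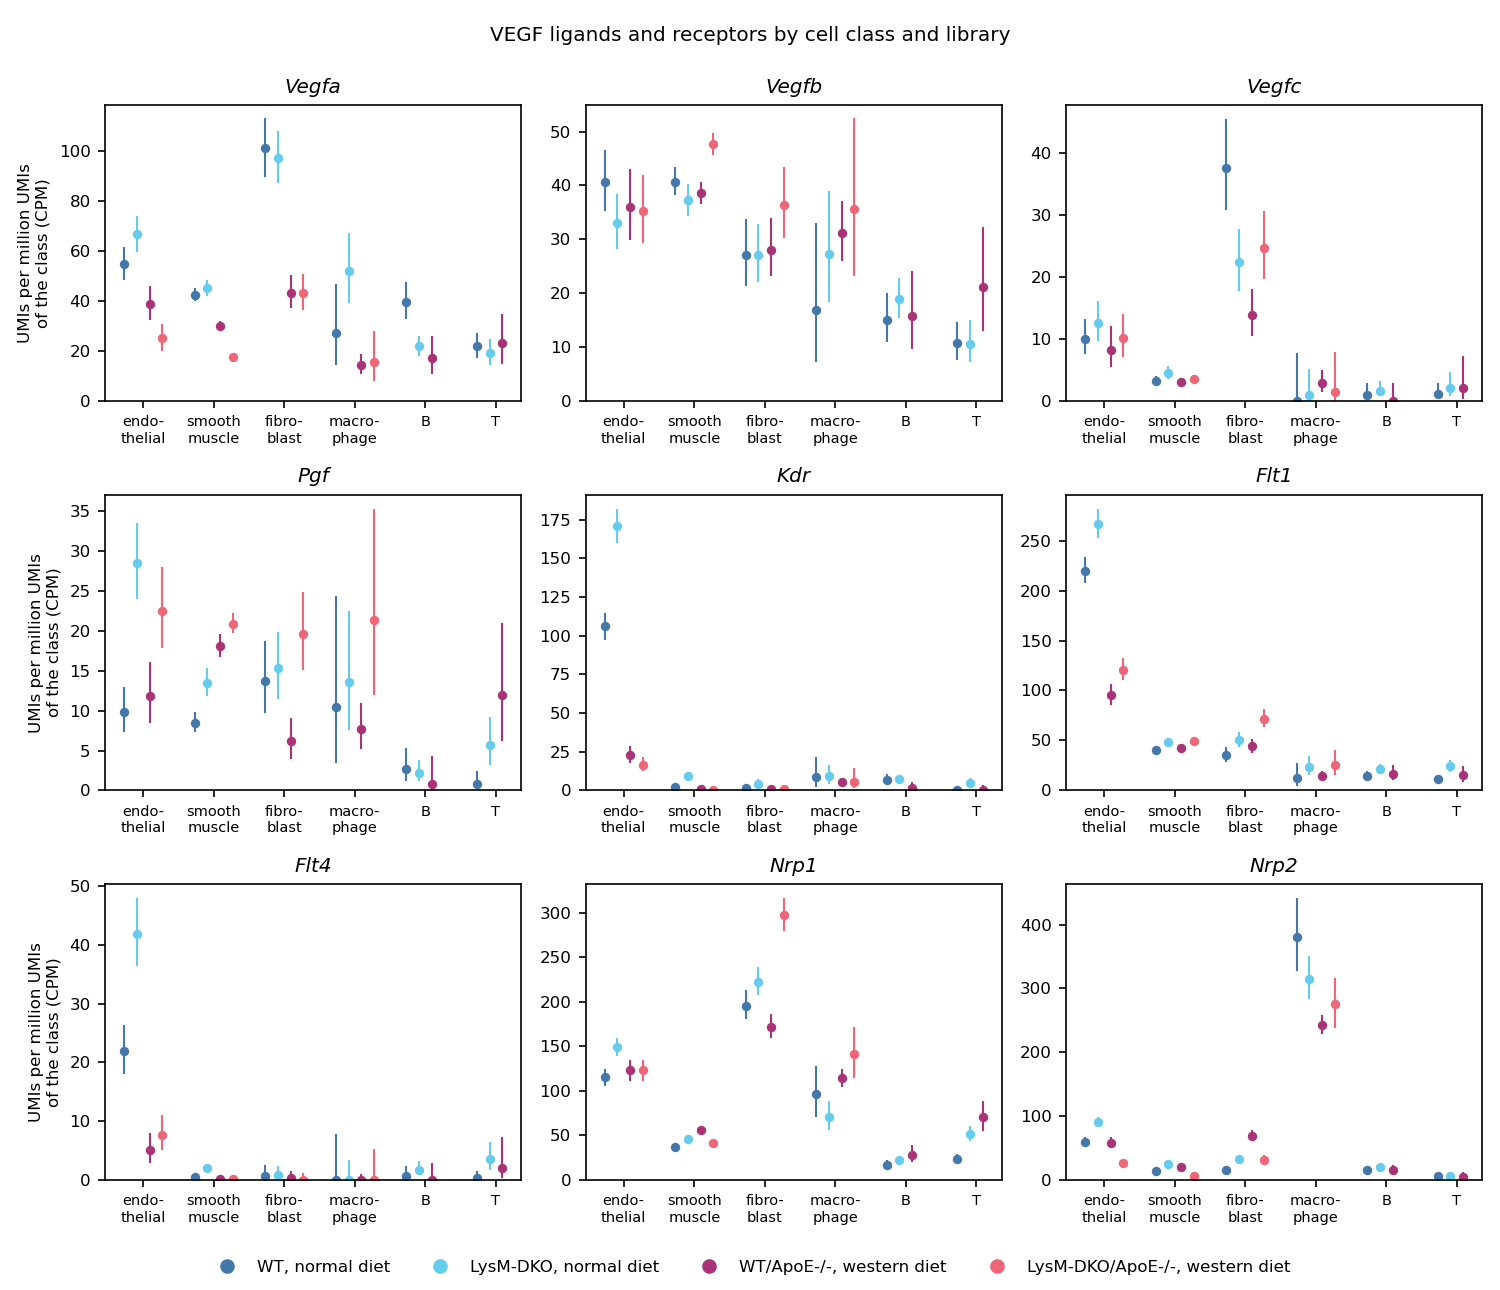
Levels of the 9 genes in CPM of the class total (linear axes, one scale per gene) in 6 classes and 4 libraries, with exact 95% Poisson intervals that cover counting error only; the B and T classes of the LysM-DKO/ApoE-/- western library (14 and 33 barcodes) are not drawn. Kdr and Flt4 are highest in the endothelial class and lower there in both western libraries, and Nrp2 is highest in macrophages in every library.

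Kdr, which encodes the main VEGF-A signalling receptor, was the member most unevenly spread over the classes together with Flt4. Endothelial barcodes held 72.4% of the 2131 Kdr UMIs of all libraries, although they held 9.06% of all UMIs. The Kdr level in the class was 106 CPM (95% Poisson interval 97.0 to 115), 171 (160 to 182), 22.7 (17.9 to 28.4) and 16.6 (12.6 to 21.4). All such intervals here cover counting error only and say nothing of variation between animals. Both normal diet libraries were above both western libraries, and their intervals did not overlap. In the 5 other classes Kdr was counted at 0 to 9.25 CPM, but the zeros of B and T barcodes in the LysM-DKO/ApoE-/- library allow up to 59.8 and 24.8 CPM. Barcodes of no class held Kdr at 20.1, 44.4, 2.52 and 24.0 CPM, in the last library no lower than the endothelial class.

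Kdr in LysM-DKO over WT endothelial barcodes was 0.69 on the log2 scale on normal diet (0.53 to 0.85, exact conditional interval) and -0.45 on western diet (-0.97 to 0.05). Western over normal diet was -2.21 in WT (-2.58 to -1.87) and -3.35 in LysM-DKO (-3.77 to -2.98). Without the barcodes that reached the smooth muscle threshold, levels of Kdr were 300, 371, 64.0 and 84.2 CPM. The western over normal ratios were then -2.21 and -2.12, and the genotype ratios 0.30 and 0.39. The lower level on western diet thus held in both sets, while the western genotype ratio took the other sign.

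Against the endothelial genes themselves the difference in Kdr was smaller. Per 100 UMIs of the 5 endothelial genes, the class held 25.7, 32.1, 15.2 and 8.07 Kdr UMIs. On that scale western over normal diet was -0.74 in WT (-1.12 to -0.41) and -1.98 in LysM-DKO (-2.40 to -1.61). In the barcodes below the smooth muscle threshold the same ratios were -0.51 (-1.06 to -0.02) and -1.29 (-1.81 to -0.83). The endothelial gene list was thus itself lower in the western libraries, and Kdr was lower still.

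Flt1, the receptor for VEGF-A, VEGF-B and placental growth factor, was less restricted than Kdr. Smooth muscle barcodes held 53.8% of its 10492 UMIs and endothelial barcodes 30.8%. Its endothelial level was 220 (208 to 234), 267 (253 to 282), 95.4 (85.3 to 106) and 121 CPM (110 to 133), again higher in both normal diet libraries. In smooth muscle it was 40.6, 48.0, 42.9 and 49.8 CPM and in fibroblasts 35.5, 50.8, 44.2 and 71.9 CPM, ranges that overlapped each other and lay below the endothelial ones. B barcodes held 14.0, 21.7, 16.4 and 0 CPM. Levels in smooth muscle were above those in the first 3 of these B classes, and the B class at 0 had only 14 barcodes.

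Western over normal diet for endothelial Flt1 was -1.21 in WT (-1.39 to -1.03) and -1.14 in LysM-DKO (-1.30 to -0.98), and LysM-DKO over WT was 0.28 and 0.35 on the 2 diets. Below the smooth muscle threshold the level of Flt1 was 571, 575, 130 and 248 CPM, with diet ratios of -2.13 and -1.21 and genotype ratios of 0.01 and 0.94. Per 100 UMIs of the 5 endothelial genes, however, the class held 53.5, 50.3, 64.0 and 59.0 Flt1 UMIs, and the diet ratios were 0.26 (0.07 to 0.44) and 0.23 (0.07 to 0.39). In the barcodes below the smooth muscle threshold this scale gave -0.43 (-0.81 to -0.08) and -0.37 (-0.67 to -0.09). In the whole class the direction for Flt1 by diet therefore turned with the scale, but below the smooth muscle threshold it did not. The direction for Kdr turned in neither.

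Flt4, the VEGF-C receptor of lymphatic endothelium, gave 500 UMIs in all, 73.6% of them in the endothelial class. Its level there was 21.9 (18.0 to 26.3), 41.8 (36.4 to 47.9), 5.02 (2.92 to 8.04) and 7.60 CPM (5.01 to 11.1). Western over normal diet was -2.09 in WT (-2.95 to -1.38) and -2.44 in LysM-DKO (-3.10 to -1.88), on 17 and 27 UMIs in the western libraries. The normal diet libraries were the higher pair. Below the smooth muscle threshold levels of Flt4 were 40.3, 69.0, 23.0 and 39.0 CPM, and the diet ratios shrank to -0.79 and -0.80. Per UMI of the 5 endothelial genes the diet ratios of Flt4 were -0.62 (-1.49 to 0.09) and -1.07 (-1.73 to -0.51) in the class, and 0.91 (-0.17 to 1.89) and 0.04 (-0.81 to 0.77) below the smooth muscle threshold. A lower Flt4 level on western diet thus did not hold under each of these, unlike that of Kdr. In macrophages no Flt4 UMI was counted in any library, which allows at most 6.28, 2.73, 0.767 and 4.27 CPM (3 counts over the class).

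**Figure D2:**
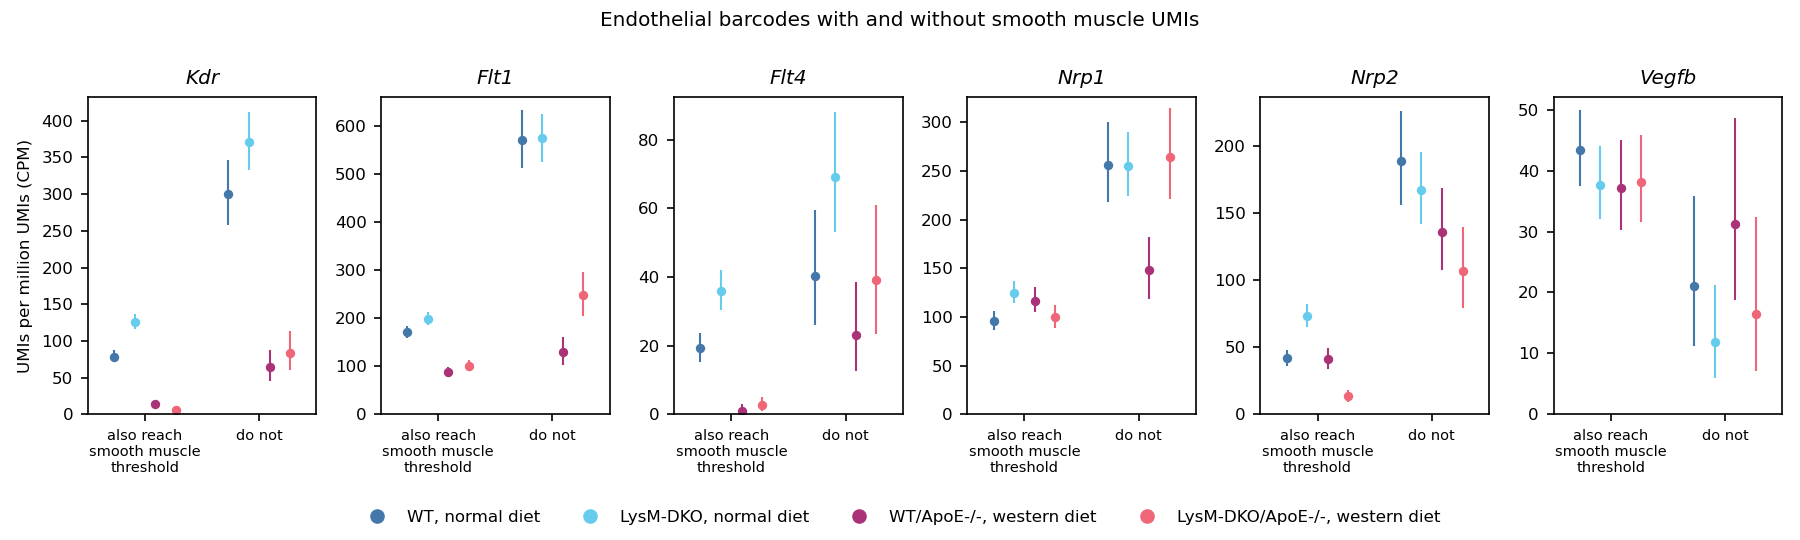
Levels in CPM (linear axes) of 5 receptor genes and Vegfb in endothelial barcodes that also reached the smooth muscle threshold (572, 611, 311 and 347 barcodes) and in those that did not (160, 269, 83 and 70), with exact 95% Poisson intervals for counting error. Kdr reads 300, 371, 64.0 and 84.2 CPM in the barcodes below the threshold and 78.8, 126, 13.7 and 5.87 CPM in the others.

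The receptors differed in where they lay within the endothelial class. The class was divided by genes outside the members: barcodes with at least 2 UMIs of the lymphatic genes Prox1, Mmrn1 and Ccl21a, then those with at least 2 UMIs of the capillary genes Gpihbp1 and Rgcc, then the rest. The lymphatic set held 42, 98, 5 and 13 barcodes and the capillary set 176, 201, 39 and 26, so both were smaller shares of the class on western diet (5.74 and 11.1% against 1.27 and 3.12%, and 24.0 and 22.8% against 9.90 and 6.24%). Of the endothelial UMIs of each gene over all libraries, 81.0% of Flt4 lay in the lymphatic set, 67.1% of Kdr and 51.8% of Flt1 in the capillary set, and 63.1% of Nrp1 in the rest. The lymphatic set held 4.59%, the capillary set 15.9% and the rest 79.5% of all endothelial UMIs, so Nrp1 was also more concentrated in the capillary set than in the rest, where it was at 78.2, 103, 114 and 118 CPM.

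Flt4 in the lymphatic set was at 322, 414, 453 and 357 CPM, and in the rest at 1.85, 2.70, 1.37 and 1.25 CPM. Within the lymphatic set its diet ratios were 0.54 (-0.52 to 1.37) and -0.19 (-0.91 to 0.42), and both intervals include 0. The lower Flt4 level of the class on western diet thus went with a smaller lymphatic set, and no lower level within that set was detectable on 12 and 23 western UMIs. Kdr was also counted there, at 431, 421, 679 and 295 CPM. Flt1 there had 32, 49, 0 and 1 UMIs, the last 2 from 5 and 13 western barcodes. The interval of its diet ratio included 0 in WT, and in LysM-DKO the ratio was -2.31 (-8.22 to -0.34).

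Kdr in the capillary set was at 342, 632, 97.4 and 115 CPM, with diet ratios of -1.80 (-2.30 to -1.35) and -2.43 (-3.00 to -1.95). Flt1 there was at 630, 890, 240 and 228 CPM, with diet ratios of -1.39 (-1.70 to -1.10) and -1.96 (-2.35 to -1.61). Both were lower on western diet within the capillary set too, on 34 to 106 western UMIs. Gpihbp1 and Rgcc together were at 226, 324, 61.7 and 84.2 CPM in the endothelial class, but at 82.7, 78.8, 138 and 207 CPM in T barcodes. Median depths of the capillary set were 4144, 3372, 9888 and 8884 UMIs, and barcodes at the smooth muscle threshold were not left out of it. The part of RNA from other cells in these ratios was not tested. Nrp1 in the same set was at 274, 392, 179 and 194 CPM, and its diet ratios were -0.61 (-0.99 to -0.25) and -1.01 (-1.45 to -0.61). On normal diet the LysM-DKO library was the higher one for all 3, by 0.89 (Kdr), 0.50 (Flt1) and 0.51 (Nrp1) on the log2 scale, and on western diet the intervals of their genotype ratios included 0.

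**Figure D3:**
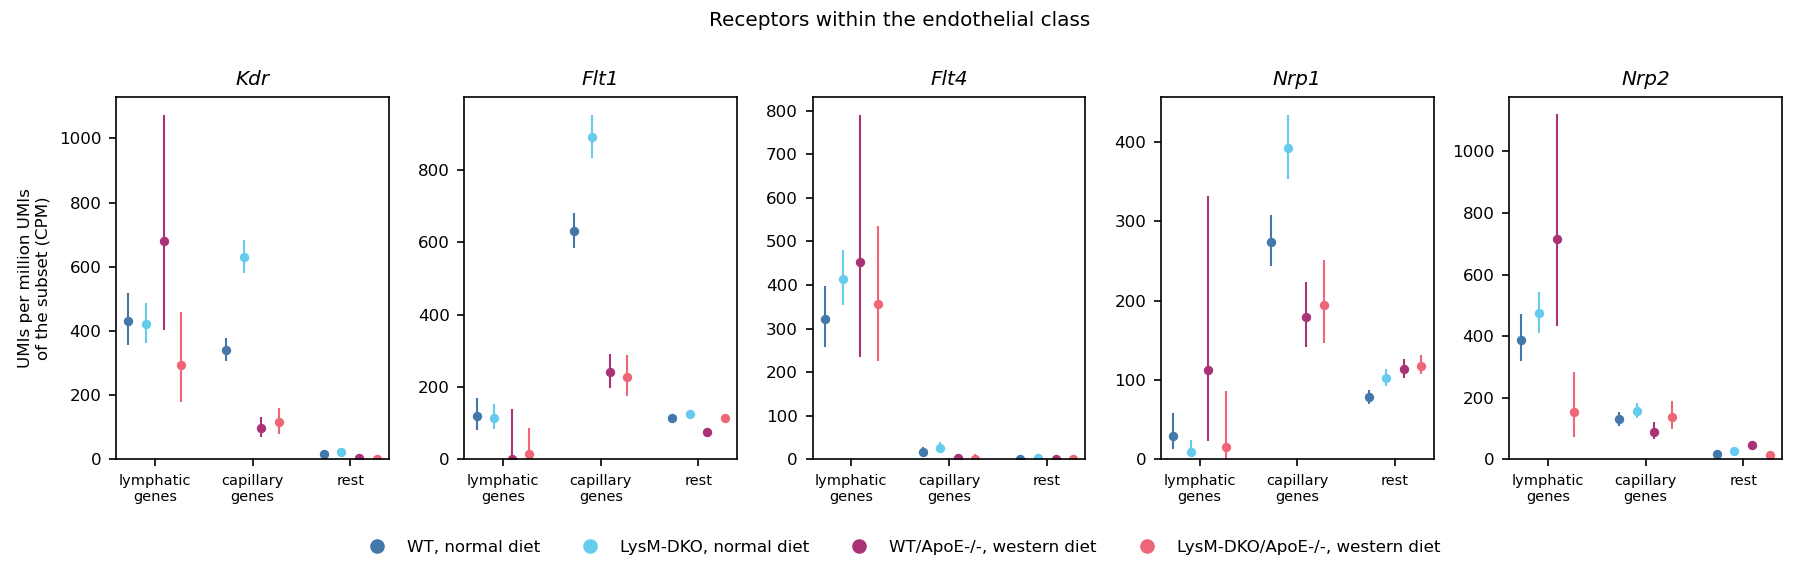
Levels in CPM of the set total (linear axes) of the 5 receptor genes in endothelial barcodes with lymphatic genes, with capillary genes and in the rest, by library, with exact 95% Poisson intervals for counting error. Flt4 lies in the lymphatic set in all libraries, and Kdr and Flt1 in the capillary set are higher on normal diet (342 and 632, 630 and 890 CPM) than on western diet (97.4 and 115, 240 and 228 CPM).

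Shares of barcodes with a receptor UMI were compared after each barcode was thinned to 1000 UMIs. Kdr was then seen in 13.5, 18.4, 3.55 and 2.16% of endothelial barcodes (22.8, 30.2, 7.61 and 4.56% unthinned), and in 0.259, 0.892, 0 and 0% of B barcodes, where 0 of 503 allows up to 0.596%. Median depths were 6582, 4527, 7478 and 7783 UMIs in endothelial and 2952, 3518, 1924 and 2226 in B barcodes, of which 62.4, 67.1, 17.9 and 21.4% also reached the smooth muscle threshold. Flt1 was seen in 21.6, 23.8, 8.12 and 11.3% thinned but in 43.4, 42.2, 37.8 and 43.4% unthinned, so for Flt1 the library difference was visible at equal depth. On normal diet 68.7 and 51.2% of the barcodes with a Kdr UMI also had a Flt1 UMI, against 14.2 and 17.5% of those without Kdr. On western diet only 14 and 9 thinned barcodes had Kdr, too few for such shares.

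Nrp1, the co-receptor for VEGF-A that also binds semaphorin 3A, was highest in fibroblasts, at 196 (181 to 213), 223 (208 to 239), 172 (159 to 186) and 298 CPM (280 to 317). Endothelial barcodes followed with 116, 149, 123 and 123 CPM and macrophages with 96.3, 70.9, 114 and 141 CPM, ranges that overlapped. With barcodes of more than 1 class left out, Nrp1 was at 261, 247, 146 and 267 CPM in endothelial barcodes. Fibroblasts were then at 217, 231, 229 and 347 CPM. Fibroblasts were thus no longer the higher class on normal diet, where the intervals of both classes overlapped, but stayed higher on western diet. In fibroblasts the LysM-DKO/ApoE-/- library was the highest, at 0.79 over WT/ApoE-/- on the log2 scale (0.65 to 0.94), against 0.18 (0.03 to 0.34) for genotype on normal diet. Endothelial Nrp1 by diet was 0.09 in WT (-0.10 to 0.27) and -0.28 in LysM-DKO (-0.45 to -0.11). In barcodes below the smooth muscle threshold its level was 256, 255, 148 and 265 CPM, with diet ratios of -0.79 (-1.19 to -0.41) and 0.05 (-0.27 to 0.37) and genotype ratios of -0.01 and 0.84. Per UMI of the 5 endothelial genes the diet ratios in the class were 1.55 (1.37 to 1.74) and 1.09 (0.92 to 1.26). The direction of Nrp1 by diet thus depended on the barcodes and the scale in WT, and turned with the scale in LysM-DKO. In smooth muscle Nrp1 was at 37.2, 45.4, 56.0 and 41.6 CPM. Among barcodes of no class, those with at least 3 UMIs of Lum and Vcam1 held Nrp1 at 119, 226, 93.8 and 422 CPM and Vegfa at 187, 93.6, 29.9 and 44.6 CPM. Those with cartilage genes (Acan, Col2a1 and Comp; 5, 7, 314 and 25 barcodes) held Vegfa at 75.6, 35.8, 63.7 and 85.0 CPM on 2, 1, 107 and 29 UMIs.

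Nrp2, a co-receptor for VEGF-C and a receptor for semaphorin 3F, was highest in macrophages in every library: 381 (328 to 441), 315 (283 to 350), 243 (228 to 259) and 275 CPM (238 to 317). Macrophages held 28.8% of the 5817 Nrp2 UMIs and 3.28% of all UMIs. The genotype ratios in macrophages were -0.28 (-0.54 to -0.01) and 0.18 (-0.05 to 0.40), and western over normal diet was -0.65 in WT (-0.88 to -0.41) and -0.20 in LysM-DKO (-0.46 to 0.06). Neither neuropilin reached a 2 fold ratio in the whole class, but Nrp1 by diet in LysM-DKO, at 70.9 and 141 CPM, was just short of it. In macrophages with at least 2 UMIs of the foam cell genes Trem2 and Gpnmb, Nrp2 was at 535, 384, 286 and 251 CPM, and in those with the resident genes Lyve1 and Folr2 at 342, 475, 315 and 389 CPM. Nrp1 in the same sets was at 35.7, 53.3, 137 and 105 CPM and at 132, 120, 109 and 321 CPM, and the foam cell set had only 13 and 26 barcodes on normal diet. In the resident set Nrp1 was 1.41 by diet in LysM-DKO (0.72 to 2.12). For genotype on western diet it was 1.49 there (0.43 to 2.87), on 38 and 8 UMIs. The intervals of its other ratios in that set included 0. In the foam cell set it was 1.77 by diet in WT (0.57 to 3.82), on 4 UMIs on normal diet.

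Outside macrophages Nrp2 differed between the genotypes in opposite directions on the 2 diets. In smooth muscle it was at 13.3, 24.4, 20 and 6.08 CPM, or 0.88 on normal diet (0.67 to 1.10) and -1.72 on western diet (-1.92 to -1.52) for LysM-DKO over WT. The 4 macrophage genes Cd68, Csf1r, Adgre1 and Fcer1g in the same smooth muscle barcodes were at 27.2, 66.9, 44.2 and 11.9 CPM and so were ordered as Nrp2 was; their part in the result was not tested. In fibroblasts Nrp2 was at 15.5, 32.2, 68.8 and 31.6 CPM, with genotype ratios of 1.05 (0.55 to 1.59) and -1.12 (-1.46 to -0.79), and there the macrophage genes were at 22.5, 17.2, 13.8 and 7.22 CPM, in another order. In endothelial barcodes Nrp2 was at 59.7, 90.4, 58.5 and 26.2 CPM (0.60 and -1.16 for genotype). Below the smooth muscle threshold its endothelial genotype ratios were -0.18 and -0.35, and with all barcodes of more than 1 class left out the western ratio was 0.20, the opposite sign.

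Vegfa, the main ligand of VEGFR2, was widely counted. Smooth muscle barcodes held 54.8% of its 6608 UMIs, fibroblasts 14.5% and endothelial barcodes 12.7%, beside shares of all UMIs of 65.1, 7.28 and 9.06%. Fibroblast levels were 101 (89.5 to 113), 97.2 (87.3 to 108), 43.2 (37.0 to 50.3) and 43.0 CPM (36.3 to 50.7). The genotypes did not differ beyond counting error on either diet, and western over normal diet was -1.22 in WT (-1.51 to -0.94) and -1.17 in LysM-DKO (-1.46 to -0.89). In smooth muscle Vegfa was at 42.4, 45.1, 30.0 and 17.4 CPM, so that the LysM-DKO/ApoE-/- library was lowest, -0.79 against WT/ApoE-/- (-0.92 to -0.65). In macrophages it was at 27.2, 51.8, 14.3 and 15.7 CPM on 13, 57, 56 and 11 UMIs, with genotype ratios of 0.89 (0.04 to 1.92) and 0.18 (-0.95 to 1.08). Western over normal diet in LysM-DKO macrophages was -1.67 (-2.80 to -0.78). Of macrophage barcodes 56.5, 61.5, 41.9 and 34.1% also reached the smooth muscle threshold, and with barcodes of more than 1 class left out that ratio was -0.82, short of 2 fold, on 9 and 6 UMIs. Endothelial Vegfa below the smooth muscle threshold was at 103, 89.5, 73.8 and 39.0 CPM. Its genotype ratios there were -0.21 (-0.69 to 0.29) and -0.90 (-1.78 to -0.12), and its diet ratios -0.48 and -1.17. Per UMI of the endothelial genes, Vegfa by diet in WT was 0.97 in the class (0.66 to 1.27). Below the threshold it was 1.22 (0.63 to 1.79). In LysM-DKO these ratios were -0.04 (-0.39 to 0.30) and -0.33 (-1.16 to 0.37). The direction of endothelial Vegfa by diet thus turned with the scale in WT. In LysM-DKO no difference beyond counting error was left on that scale.

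Vegfb, a ligand of VEGFR1, was the most even member. Smooth muscle held 75.5% of its 6897 UMIs, with levels of 40.7, 37.3, 38.6 and 47.7 CPM. No ratio of Vegfb in the endothelial, smooth muscle, fibroblast or macrophage class reached 2 fold; they lay between -0.30 and 0.82 on the log2 scale. In endothelial barcodes it was at 40.6, 33.0, 36.0 and 35.2 CPM, but below the smooth muscle threshold only 13, 11, 19 and 8 UMIs remained.

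Vegfc, the ligand of VEGFR3, had its highest level in fibroblasts, which held 31.6% of its 1027 UMIs. Smooth muscle barcodes held a larger share of them, 41.3%, at a lower level. The fibroblast levels were 37.6 (30.8 to 45.4), 22.4 (17.8 to 27.8), 13.8 (10.4 to 18.0) and 24.7 CPM (19.6 to 30.6). The WT normal library was the highest and the WT/ApoE-/- western library the lowest, and both LysM-DKO libraries lay between them. LysM-DKO over WT was therefore -0.75 on normal diet (-1.18 to -0.32) and 0.83 on western diet (0.32 to 1.36), and western over normal diet was -1.44 in WT (-1.94 to -0.96) and 0.14 in LysM-DKO (-0.32 to 0.60). With barcodes of more than 1 class left out the fibroblast levels were 38.4, 28.0, 16.4 and 29.3 CPM, and the normal diet intervals of the genotypes overlapped. Endothelial levels of Vegfc were 10.0, 12.6, 8.27 and 10.1 CPM (32.3, 14.0, 13.1 and 14.4 CPM below the smooth muscle threshold, on 20, 13, 8 and 7 UMIs), and smooth muscle levels 3.15, 4.54, 3.0 and 3.53 CPM.

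Pgf, which encodes placental growth factor, differed between genotypes in endothelial barcodes, at 9.85 (7.31 to 13.0), 28.5 (24.0 to 33.5), 11.8 (8.44 to 16.1) and 22.5 CPM (17.9 to 28.0). Both LysM-DKO libraries were above both WT libraries there, by 1.52 on normal diet (1.06 to 2.03) and 0.92 on western diet (0.37 to 1.52). Per UMI of the 5 endothelial genes these ratios were 1.15 (0.69 to 1.66) and 0.46 (-0.10 to 1.05), and the western interval included 0. Below the smooth muscle threshold Pgf was at 12.9, 66.8, 3.28 and 28.7 CPM on 8, 62, 2 and 14 UMIs, with a ratio of 2.30 on normal diet. The western UMIs there were too few to be compared. In fibroblasts it was at 13.7, 15.3, 6.14 and 19.6 CPM (1.65 on western diet, 0.98 to 2.41), and in macrophages at 10.5, 13.6, 7.67 and 21.4 CPM on 5, 15, 30 and 15 UMIs (1.5 on western diet, 0.48 to 2.42). In smooth muscle it was at 8.51, 13.5, 18.1 and 20.9 CPM, lowest in WT on normal diet, with diet ratios of 1.09 in WT (0.86 to 1.33) and 0.63 in LysM-DKO (0.43 to 0.85).

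**Figure D4:**
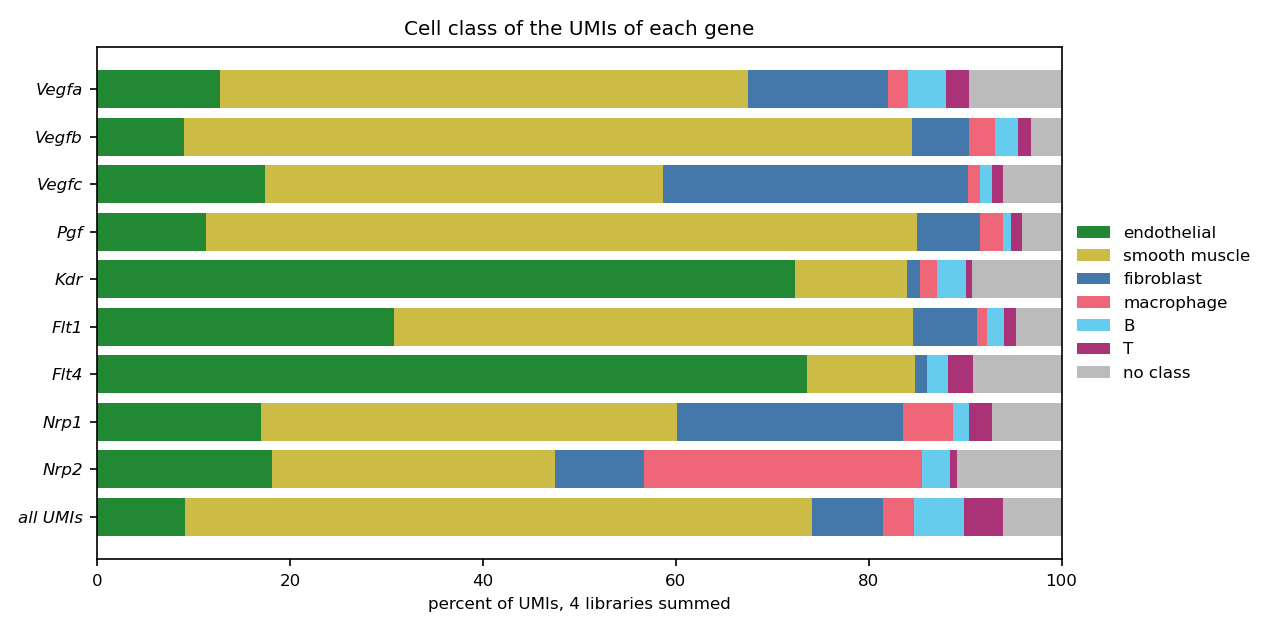
Percent of the UMIs of each member, and of all UMIs, that lie in each class, with the 4 libraries summed. Endothelial barcodes hold 72.4% of Kdr and 73.6% of Flt4 against 9.06% of all UMIs, and macrophages hold 28.8% of Nrp2 against 3.28%.

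Counts of members set each comparison beside all genes, where a gene was compared if it had at least 20 UMIs over both libraries and counted if it differed at least 2 fold. In endothelial barcodes Pgf alone, of 9 members, was higher in LysM-DKO on normal diet, and none was lower; of all genes 3.51% were higher and 1.05% lower. On western diet none was higher in LysM-DKO and 1 of 9, Nrp2, was lower, beside 3.03 and 3.68% of all genes. By diet in WT none was higher on western diet and 3 of 9 (Kdr, Flt1 and Flt4) were lower, beside 5.91 and 8.55% of all genes. In LysM-DKO none was higher and 5 of 9 (these 3, Vegfa and Nrp2) were lower, beside 3.45 and 8.75%. The genotype counts, 1 of 9 each, are too small to set apart from the background shares. In the barcodes below the smooth muscle threshold the diet counts were 3 of 8 lower in WT (Vegfc, Kdr and Flt1) and 4 of 8 lower in LysM-DKO (Vegfa, Pgf, Kdr and Flt1), none higher, beside 11.8 and 8.35% of all genes lower. The genotype counts there were 1 higher (Pgf) and 1 lower (Vegfc) of 9 on normal diet and none of 7 on western diet. Per UMI of the 5 endothelial genes the median of all genes shifted by diet to 1.44 in WT and 1.41 in LysM-DKO. On that scale 5 of 9 members were higher and none lower in WT, beside 77.8 and 0.994% of all genes, and 4 were higher and 2 (Kdr and Flt4) lower in LysM-DKO, beside 77.4 and 2.10%. The median over the members was 1.20 in WT and 0.23 in LysM-DKO, below that of all genes in both.

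In smooth muscle 2 of 9 members (Kdr and Flt4) were higher in LysM-DKO on normal diet and none was lower, beside 6.48 and 0.975% of all genes. On western diet none of 8 was higher and 2 (Kdr and Nrp2) were lower in LysM-DKO, beside 1.92 and 9.52%. By diet in WT 1 of 8 was higher (Pgf) and 1 lower (Kdr), beside 5.43 and 9.25%, and in LysM-DKO none of 9 was higher and 4 (Vegfa, Kdr, Flt4 and Nrp2) were lower, beside 2.72 and 17.0%. Smooth muscle Kdr was at 2.46, 9.25, 0.785 and 0.0829 CPM on 57, 159, 27 and 4 UMIs, with genotype ratios of 1.90 and -3.10. Tie1, a gene of endothelial cells, was at 0.432, 2.27, 0.320 and 0.0415 CPM in the same barcodes and so was ordered as Kdr was. The 5 endothelial genes together, at 21.3, 39.2, 19.8 and 16.8 CPM, had the same order with smaller differences. The part of endothelial RNA in these values was not tested.

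In fibroblasts 2 of 8 members (Kdr, on 20 UMIs, and Nrp2) were higher in LysM-DKO on normal diet and none was lower, beside 2.71 and 1.57% of all genes. On western diet 1 of 7 was higher (Pgf) and 1 lower (Nrp2), beside 3.11 and 3.70%. By diet in WT 1 of 7 was higher (Nrp2) and 3 lower (Vegfa, Vegfc and Pgf), beside 9.59 and 7.72%, and in LysM-DKO none was higher and 1 of 7 lower (Vegfa), beside 5.93 and 5.63%. In macrophages none of 6 members differed between genotypes on normal diet, where 6.55% of all genes were higher and 2.39% lower, and 1 of 7 was higher in LysM-DKO on western diet (Pgf), beside 4.10% higher and 9.10% lower. None of 7 differed by diet in WT, where 21.0% of all genes were higher and 8.71% lower, and 1 of 6 was lower on western diet in LysM-DKO (Vegfa), beside 7.11% higher and 6.46% lower. The 4 contrasts share libraries, so they are not independent of one another.

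**Figure D5:**
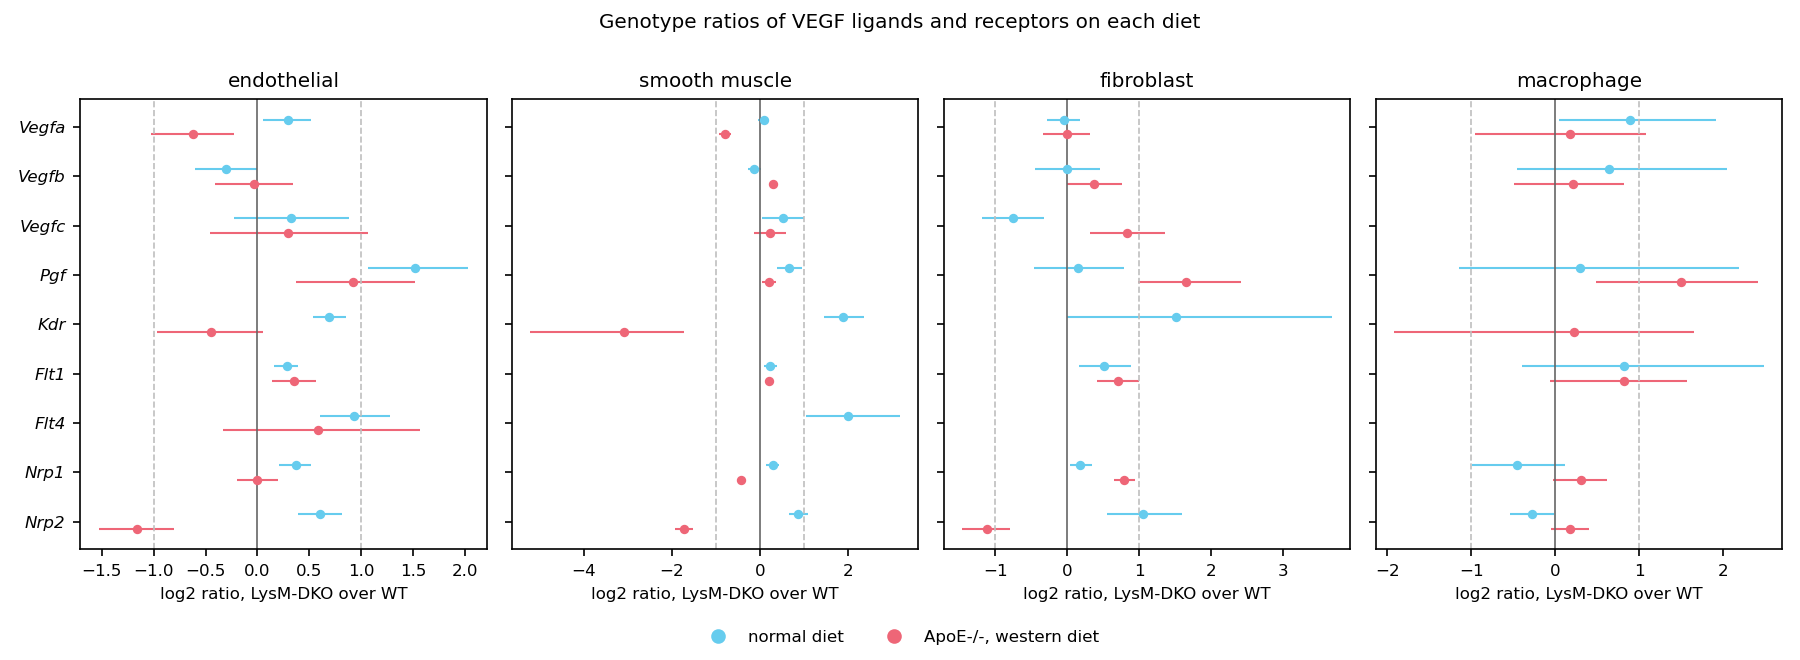
Log2 ratios of LysM-DKO over WT on normal diet and on ApoE-/- western diet in 4 classes, with exact 95% intervals for counting error; dashed lines mark 2 fold, and members with under 20 UMIs over both libraries are not drawn. The ratios of Nrp2 in endothelial, smooth muscle and fibroblast barcodes lie on opposite sides of 0 on the 2 diets (0.60 and -1.16, 0.88 and -1.72, 1.05 and -1.12).

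The rest of the pathway was read from 44 genes in 8 lists. In endothelial barcodes 3 of 43 compared genes were higher and 11 lower on western diet in WT (median log2 ratio -0.32, against -0.02 over all genes), beside 5.91 and 8.55% of all genes. In LysM-DKO 1 of 41 was higher and 4 lower (median -0.50, against 0.04), beside 3.45 and 8.75%. Of the same genes below the smooth muscle threshold, 5 of 35 were higher and 12 lower in WT, beside 8.82 and 11.8% of all genes, and 5 of 33 higher and 9 lower in LysM-DKO, beside 10.5 and 8.35%. Per UMI of the 5 endothelial genes, 27 of 43 were higher and 3 lower in WT and 18 of 41 higher and none lower in LysM-DKO, where the median of all genes had shifted as given above. Of the 9 downstream and response genes 3 were lower in WT and none was higher. Nos3, the endothelial nitric oxide synthase, was at 46.3, 56.2, 5.61 and 24.8 CPM, with -3.01 for diet in WT (-3.80 to -2.37) and 2.11 for genotype on western diet (1.42 to 2.94). Nos3 below the smooth muscle threshold was at 161, 144, 19.7 and 49.3 CPM, with -2.98 and 1.29 for the same ratios. Dll4, the Notch ligand of sprouting vessels, was at 19.7, 32.8, 2.95 and 7.04 CPM, with diet ratios of -2.67 and -2.20 (-2.51 and -1.77 below the threshold). Receptor partners were lower for 3 of 6 genes in WT, and the angiopoietin branch for 2 of 4 in both genotypes; it includes Tie1, at 44.1, 61.7, 13.3 and 19.7 CPM. Of the neuropilin ligands 1 of 7 was higher and 2 lower in WT, and of the plexins 1 of 5 was higher. In LysM-DKO no receptor partner, neuropilin ligand or plexin reached 2 fold by diet in the whole class (0 of 6, 0 of 7 and 0 of 5). Below the smooth muscle threshold, however, Efnb2, Sema3a and Sema3f were at least 2 fold lower on western diet in LysM-DKO. Sema3c, and Sema3b on 10 and 11 UMIs, were at least 2 fold higher there.

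Few of these genes differed 2 fold by genotype in the whole endothelial class. On normal diet 1 of 43 was higher and 1 lower, beside 3.51 and 1.05% of all genes. On western diet 3 of 41 were higher and 1 lower, beside 3.03 and 3.68%. Egln3, an oxygen-sensing prolyl hydroxylase, was higher in LysM-DKO on normal diet (1.20, 0.58 to 1.89). Sema3e, a semaphorin that binds plexin D1, was lower in LysM-DKO on western diet (-2.48, -3.14 to -1.91), and Sema3g, a neuropilin ligand, was higher (2.03, 1.26 to 2.94). Sema3g below the smooth muscle threshold was at 2.40 (1.19 to 4.06), while Egln3 and Sema3e had too few UMIs to be compared. The genotype counts there were 1 higher (Vegfd) and 2 lower (Clec14a and Thbs1) of 33 on normal diet, beside 3.18 and 3.30% of all genes. On western diet 5 of 30 were higher in LysM-DKO (Nos3, Dll4, Tek, Sema3c and Sema3g) and 1 lower (Gpc1), beside 6.40 and 3.77%. In the whole endothelial class none of the 6 hypoxia regulators was 2 fold different by diet in either genotype. Below the smooth muscle threshold Hif1a was at least 2 fold higher and Epas1 at least 2 fold lower on western diet in both genotypes. Their levels there were 108, 125, 230 and 298 CPM (Hif1a) and 582, 633, 256 and 314 CPM (Epas1).

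Thbs1, which encodes thrombospondin 1, a secreted inhibitor of vessel growth, differed at least 2 fold in 1 or more contrasts in each of the 4 classes. In smooth muscle it was at 85.9, 130, 278 and 43.2 CPM, 1.69 for diet in WT (1.62 to 1.76) and -2.68 for genotype on western diet (-2.75 to -2.62). In endothelial barcodes it was at 181, 106, 386 and 290 CPM, higher on western diet by 1.09 and 1.45. Thbs1 below the smooth muscle threshold was at 669, 130, 612 and 659 CPM, with diet ratios of -0.13 and 2.33, so no increase was left in WT. In smooth muscle 5 of 42 pathway genes were higher in LysM-DKO on normal diet and none lower, beside 6.48 and 0.975% of all genes. On western diet in LysM-DKO 9 of 43 were lower and none higher, beside 17.0 and 2.72%, among them Tek, the angiopoietin receptor (-5.25, on 3 UMIs against 47). In fibroblasts 5 of 37 were higher and 7 lower by diet in WT, beside 9.59 and 7.72% of all genes, with Gpc1, a heparan sulfate proteoglycan, at 2.50 and Tek at -2.31. In macrophages 7 of 29 were higher and 1 lower by diet in WT, beside 21.0 and 8.71%, so the higher share is near that of all genes. There 2 of 31 were higher and 8 lower for genotype on western diet, beside 4.10 and 9.10%, with Thbs1 at 1.36 and Sema3e at -2.05.

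Genes with the profile most like each member over the 24 class-by-library sums were found by Pearson correlation of log2(CPM + 10) among 13715 genes. These values are descriptions, since the points share libraries and depth. For Kdr they were Gpihbp1 (0.97), Rasip1 (0.97) and Klhl4 (0.96), and for Flt4 they were Dll4 (0.98), Clca3a1 (0.97) and Robo4 (0.97). Gpihbp1 is a capillary gene and Robo4 an endothelial guidance receptor. Flt1 was most like Shroom4 (0.94), Slc9a3r2 (0.94) and Epas1 (0.91), Nrp2 most like Slc6a6 (0.96), Stard8 (0.93) and Sirpa (0.93), and Nrp1 most like Tbc1d9b (0.89), Emp1 (0.89) and Serpinb6a (0.88). Vegfc was most like Plscr4, Slc38a4 and Hdx (0.96 each), Vegfb like Rsu1 (0.93), Capns1 (0.90) and Cpne2 (0.90), Pgf like Arhgef26 (0.86), Gstm4 (0.85) and B230217C12Rik (0.83), and Vegfa like Endov (0.91), Spef1 (0.87) and Dnah12 (0.87). With a pseudocount of 1 all 3 neighbours of Nrp1 remained, 2 each for Kdr, Vegfb and Nrp2, 1 each for Vegfc, Pgf, Flt1 and Flt4, and none for Vegfa. Among the members themselves Kdr and Flt4 were most alike (0.94), then Flt1 and Flt4 (0.77) and Flt1 and Kdr (0.74).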

How the data were processed

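RNA of single cells from mouse aorta was counted with a 10x Genomics 3' kit in 4 libraries. The deposited values are whole-number UMI counts per gene and barcode, made by the authors with Cell Ranger, 6.0.1 on normal diet and 6.1.2 on western diet, per the file headers. The submitters' processing notes list Cell Ranger 6.1.2, Seurat 4.1.0 and mm10 for all libraries. Total counts were 51281643, 50662515, 67450979 and 62510744 UMIs over 13831, 15826, 29724 and 11414 barcodes.

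Classes follow the marker thresholds in the text. UMIs were summed per class and library and given as CPM of the class total; ratios are log2 with 0.5 UMIs added. With 1 library per group there is no replicate and no test between groups, and Poisson, binomial and conditional binomial intervals (95%) cover counting error only. No doublet caller was run. Barcodes that met more than 1 class rule (23.8, 28.4, 8.32 and 7.59% of kept) were left out as an alternative. Other alternatives were UMI and mitochondrial limits, raised class thresholds, equal weight per cell, median-ratio scaling, low-count limits and the pseudocount; leaving out smooth muscle barcodes and scaling to endothelial genes were chosen after seeing the data. Named genes were the members, for each the 3 genes with the most similar profile (at least 200 UMIs), and in each contrast the 2 pathway genes with the largest ratios in each direction (at least 50 UMIs), from which the text gives examples. Members, lists and rules were chosen with earlier results of these data known. The ratio and interval code was tested on simulated data. Gene locations were joined by gene ID (32158 of 32285 features, 99.6%, matched), and all 9 members had a RefSeq promoter. The analysis ran in Python 3.11.15 with scipy 1.17.1 for intervals, matplotlib 3.10.9 for plots, and pandas 2.3.3 and numpy 2.4.6.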

Additional observations from a re-analysis of the deposited data

Results flagged for a closer look

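Some members differed between genotypes in opposite directions on the 2 diets, with both intervals apart from 0. For each gene the log2 ratio and interval on normal diet come first and those on western diet second. The difference between the diets was not tested, with 1 library per group. In endothelial barcodes these were Vegfa (0.29, 0.05 to 0.52, and -0.62, -1.03 to -0.23) and Nrp2 (0.60, 0.39 to 0.81, and -1.16, -1.53 to -0.80). In smooth muscle they were Kdr (1.90, 1.46 to 2.37, and -3.10, -5.22 to -1.72), Nrp1 (0.29, 0.15 to 0.43, and -0.43, -0.52 to -0.34) and Nrp2 (0.88, 0.67 to 1.10, and -1.72, -1.92 to -1.52). In fibroblasts they were Vegfc (-0.75, -1.18 to -0.32, and 0.83, 0.32 to 1.36) and Nrp2 (1.05, 0.55 to 1.59, and -1.12, -1.46 to -0.79). In endothelial barcodes below the smooth muscle threshold these opposite signs were lost: the ratios were -0.21 and -0.90 for Vegfa and -0.18 and -0.35 for Nrp2. Per UMI of 5 endothelial genes they were lost for Vegfa (-0.08 and -1.09) and kept for Nrp2 (0.23 and -1.62). The western Kdr value in smooth muscle rests on 4 UMIs in LysM-DKO/ApoE-/- against 27 in WT/ApoE-/-.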

How the results depend on the processing

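A ratio is called reversed here only if it was at least 2 fold and took the other sign. Of 875 ratios of any size recomputed under the other settings, 799 kept their sign. Of the 875, 786 stayed within their counting interval, 88 moved beyond it and 1 reversed. The reversed one was endothelial Nrp2 on western diet, -1.16, which was 0.20 with barcodes of more than 1 class left out. That alternative left 24 of 31 ratios of at least 2 fold at 2 fold. It moved the endothelial genotype ratios of Kdr to 0.17 on normal diet and 0.43 on western diet, and those of Flt1 to -0.11 and 1.12. Raised class thresholds gave 0.37 for Kdr on normal diet, and equal weight per cell 0.47 for Kdr and -0.02 for Flt1. Without barcodes at the smooth muscle threshold, chosen after seeing the data, these ratios were 0.30 and 0.39 (Kdr) and 0.01 and 0.94 (Flt1). Scaled to the 5 endothelial genes, also chosen after seeing the data, Kdr on normal diet was 0.32 and Flt1 -0.09 and -0.12, and the diet ratios of Flt1 reversed from -1.21 to 0.26 in WT and from -1.14 to 0.23 in LysM-DKO. Of 32 endothelial ratios 24 moved beyond their counting interval in the former, and of 36 in the latter 28 moved and 2 reversed. Smaller ratios that changed sign, such as that of Nrp1 by diet in LysM-DKO (1.09 when scaled to the endothelial genes), are not counted as reversed. The causes were not tested. Counts of members past 2 fold differed by over 1.5 times under other UMI minimums in these cases. With at least 50 UMIs smooth muscle gave 1 for genotype on each diet (2 at 20 UMIs), fibroblasts 1 for genotype on normal diet (2) and macrophages 0 for genotype on western diet (1). With at least 10 UMIs, or no minimum, fibroblasts gave 2 or 3 by diet in LysM-DKO (1), and with at least 10 UMIs macrophages gave 1 by diet in WT (0). With no minimum macrophages gave 1 for genotype on normal diet (0), 2 on western diet (1) and 2 by diet in WT, but 1 of these in each is Flt4 at 0 against 0 UMIs, which is no difference. No paired analysis was possible because each group has 1 library. Depth limits macrophages, with 477498 to 3911134 UMIs a library, and the B and T classes of LysM-DKO/ApoE-/- mice, with 50189 and 120789 UMIs.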
